A study of Mus musculus with 10 samples.

Results

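The transcripts of 10 hepatic carriers of bile acids and organic anions were followed through both bulk liver experiments of a study of liver regeneration in mice. The members were taken by gene symbol: the uptake carriers Slc10a1, Slco1a1, Slco1a4, Slco1b2 and Slco2b1, the exporters of the bile canaliculus Abcb11, Abcb4 and Abcc2, and the exporters of the blood side Abcc3 and Abcc4. All 10 were found among the 55487 gene identifiers of each table, and all 10 passed the filter on low counts in both. Livers were taken after partial hepatectomy (PHx), in which a share of the organ is removed and the rest grows back. The diet experiment compared C57BL/6 males, 8 weeks old, that ate high-fat food (HFD) or chow over the 7 days up to PHx; their livers were collected 40 hours later and gave 3 libraries per diet. In the inhibitor experiment, C57BL/6J mice received SSO at 40 mg/kg or solvent vehicle 1 day before PHx. They are labelled wild type, and are also given as male and 8 weeks old. Livers were collected 48 hours after PHx and gave 4 libraries per treatment. SSO is not spelled out in the labels, and is an abbreviation commonly used for sulfosuccinimidyl oleate, which blocks the fatty acid receptor CD36. Every mouse of these 4 groups had PHx, so no group shows the levels of an unoperated liver. The design text gives 3 individuals per diet group. For the inhibitor experiment the labels give 8 mice per group but do not say which animals the 4 libraries came from, so the p-values of that experiment reflect spread between libraries, which may be technical.

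Bile acids circulate between liver and gut. Hepatocytes take them up from sinusoidal blood, chiefly with sodium through the product of Slc10a1 and without sodium through the Slco family, which also carries bilirubin, steroid conjugates and many drugs. Export into bile through the ATP-driven pumps of the canaliculus drives bile flow, while the pumps Abcc3 and Abcc4 return bile acids and conjugates to blood and are known as a relief route when bile flow is blocked. The bile acid receptor FXR, the product of Nr1h4, and the xenobiotic receptors CAR and PXR, the products of Nr1i3 and Nr1i2, are known regulators of these genes. Loss of carrier transcripts during regrowth has been described in regenerating rodent liver.

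The genes lie on 8 chromosomes of GRCm38, and 3 of the uptake carriers share a cluster on chromosome 6. There Slco1b2 (ENSMUSG00000030236, chr6:141629518-141686646, plus strand), Slco1a4 (ENSMUSG00000030237, chr6:141805440-141856199, minus strand) and Slco1a1 (ENSMUSG00000041698, chr6:141907282-141946962, minus strand) span 317 kb, with gaps of 118.8 kb and 51.1 kb. The bile acid carrier Slc10a1 (ENSMUSG00000021135) lies at chr12:80953183-80968705, Slco2b1 (ENSMUSG00000030737) at chr7:99657804-99711340, Abcb11 (ENSMUSG00000027048) at chr2:69238282-69342616, Abcc3 (ENSMUSG00000020865) at chr11:94343295-94392997 and Abcc4 (ENSMUSG00000032849) at chr14:118482692-118706219, all on the minus strand. On the plus strand lie Abcb4 (ENSMUSG00000042476) at chr5:8893717-8959231 and Abcc2 (ENSMUSG00000025194) at chr19:43782192-43840740. The 250 bases before the RefSeq start (GRCm38.p6) are shown for the members that the results below turn on: the neighbours Slco1a4 and Slco1a1, the bile salt pump Abcb11 and the blood-side pump Abcc4. Capitals mark matches, on either strand, to AGGTCA (the element that nuclear receptors such as FXR, CAR and PXR read, alone or in pairs), CACGTG (an E-box) or TGACNNNGC (the antioxidant response core, read by NRF2).
Slco1a4: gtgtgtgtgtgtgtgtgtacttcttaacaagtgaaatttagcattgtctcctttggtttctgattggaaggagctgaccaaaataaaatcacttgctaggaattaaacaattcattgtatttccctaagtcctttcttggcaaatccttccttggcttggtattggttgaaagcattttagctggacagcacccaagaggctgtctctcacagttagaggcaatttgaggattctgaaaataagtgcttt
Slco1a1: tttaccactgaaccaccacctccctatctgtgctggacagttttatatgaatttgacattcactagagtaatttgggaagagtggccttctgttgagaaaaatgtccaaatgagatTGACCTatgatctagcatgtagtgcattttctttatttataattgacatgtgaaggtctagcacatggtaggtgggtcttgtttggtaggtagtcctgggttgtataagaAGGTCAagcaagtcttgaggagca
Abcb11: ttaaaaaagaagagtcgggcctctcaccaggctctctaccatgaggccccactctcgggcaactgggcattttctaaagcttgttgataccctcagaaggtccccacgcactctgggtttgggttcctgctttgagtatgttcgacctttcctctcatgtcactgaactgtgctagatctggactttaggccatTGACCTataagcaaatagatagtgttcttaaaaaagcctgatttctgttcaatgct
Abcc4: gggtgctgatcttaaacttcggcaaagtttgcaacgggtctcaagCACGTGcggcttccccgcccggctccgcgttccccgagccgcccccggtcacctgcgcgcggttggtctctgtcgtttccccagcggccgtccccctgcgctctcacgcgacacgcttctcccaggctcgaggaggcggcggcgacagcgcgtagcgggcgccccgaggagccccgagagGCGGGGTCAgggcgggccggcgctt
These windows are chr6:141856221-141856470, chr6:141946963-141947212, chr2:69342617-69342866 and chr14:118706220-118706469, each on the minus strand and printed 5′ to 3′ along the gene. Counted back from the start, AGGTCA begins at -134 and -24 in Slco1a1 and at -56 in Abcb11, while in Abcc4 CACGTG begins at -205 and TGACNNNGC at -25. The Slco1a4 window held none of the motifs searched, which also included TTATGTAA (a D-box of the clock output factors) and GTTAAT (part of the HNF1 site). RefSeq windows were at hand for 9 members, with 13 starts in all. AGGTCA lay in 5 of the 13 windows (38.5%) against 14.0% of 32851 windows of the same length, and TGACNNNGC in 3 (23.1%) against 10.2%. CACGTG and GTTAAT each lay in 1 window (7.69%), against 6.02% and 6.43%, and TTATGTAA in 0, against 0.819%. The motifs can overlap by TGAC, which is shared by TGACNNNGC and the reverse complement of AGGTCA. A match describes the letters of a window and does not show that a factor binds there.

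Depth was 31.9 to 39.9 M counts per diet library and 25.2 to 30.4 M per inhibitor library, and all carried the hepatocyte marker Alb, at 30819 to 82710 CPM (counts per M counts, on library sizes scaled by trimmed means, TMM). The libraries of the inhibitor experiment went against their sex label: Xist, which silences an X chromosome in females, stood at 697 to 1771 CPM in all 8, and the Y-linked Ddx3y had 0 counts, whereas the 6 diet libraries had at most 0.62 CPM of Xist and 55.0 to 76.3 CPM of Ddx3y. In mouse liver Slco1a1 is known as a male-biased and Slco1a4 as a female-biased transcript, so levels set across the experiments differ in sex, time, procedure and table at once, and these cannot be told apart. The vehicle libraries stood apart from each other. On the first principal component of the inhibitor experiment, which held 45.8% of the variance, the SSO libraries lay between -31.8 and -40.5, against 97.3 for vehicle 1, 92.7 for vehicle 3, 2.9 for vehicle 4 and -52.5 for vehicle 2. Mitochondrially encoded transcripts took 15.2% to 17.6% of the counts in SSO libraries, against 4.99%, 22.5%, 11.5% and 9.15% in vehicle 1 to 4. In whole liver, fewer cells of a type and less RNA per cell cannot be told apart.

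Per length of exon, Slc10a1 had the highest mean level of the 10 in every group. Its mean RPKM (CPM per kilobase of exon) was 125 ± 24.6 in HFD livers and 218 ± 19.0 in chow livers (SD, n = 3 each), and 254 ± 20.2 in SSO livers and 149 ± 79.4 in vehicle livers (SD, n = 4 each). Slco1b2 came next in HFD livers at 125 RPKM, and the ranges of these 2 genes overlapped there. Abcb11 and Abcc2, at 84.4 and 58.3 RPKM in HFD livers, formed a middle layer together with Slco1a1 at 57.8 RPKM. Below them came Abcb4 at 32.6, Slco2b1 at 17.0, Abcc3 at 16.3, Slco1a4 at 2.21 and Abcc4 at 0.272 RPKM. In chow livers the order was Slc10a1, Slco1b2 (158 RPKM), Abcc2 (73.1), Abcb11 (69.9), Abcc3 (39.6), Slco1a1 (28.5), Abcb4 (23.8), Slco2b1 (20.8), Slco1a4 (13.3) and Abcc4 (0.213), and from Abcc2 to Slco2b1 each range overlapped that of the next gene. SSO livers had Abcb11 second at 123 RPKM, followed by Slco1b2 at 99.0, Abcc2 at 82.4, Slco1a4 at 36.0, Abcc3 at 28.4, Slco2b1 at 19.9, Abcb4 at 12.7, Slco1a1 at 10.2 and Abcc4 at 1.40 RPKM. In vehicle livers each gene's range overlapped that of the next one down the whole order, from Slc10a1 to Abcc4 at 12.1 and Slco1a1 at 8.61 RPKM. Slco1a1 lay above Slco1a4 in each HFD and chow library and below it in each SSO library and in vehicle 1, 3 and 4, while in vehicle 2 it lay above, at 31.9 RPKM against 19.3 RPKM of Slco1a4.

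**Figure D1:**
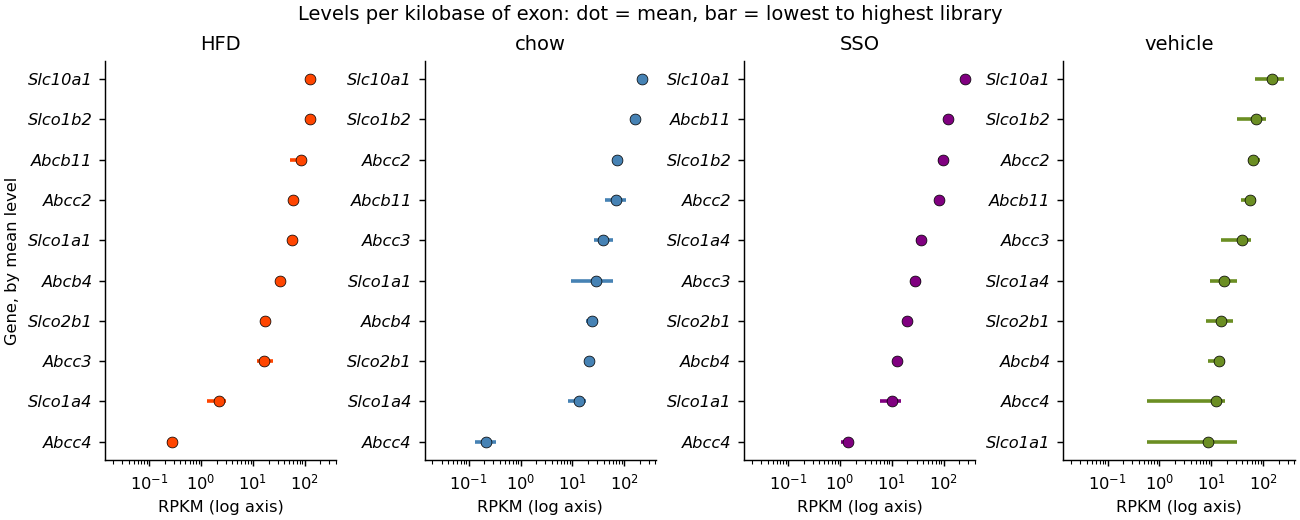
Mean RPKM of the 10 transporter genes on a log axis in HFD, chow, SSO and vehicle livers, ordered by mean in each panel, with bars from the lowest to the highest library. Slc10a1 leads in each group, and the bars of Slco1a1 and Abcc4 are long in vehicle livers, from 0.569 to 31.9 RPKM and from 0.575 to 18.8 RPKM.

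The diet comparison asked how fat loading before surgery bears on the regenerating liver. Among the transporters, Slco1a4, an uptake carrier for bile acids and organic anions, fell in HFD livers, and it was the only member of 10 called (edgeR quasi-likelihood test, Benjamini-Hochberg adjusted p under 0.05 over all genes). Over all 15589 genes tested, 2.32% were called, 1.60% higher and 0.718% lower. DESeq2 called 868 of 16034 genes and limma-voom 361 of 15589. EdgeR called 681 of 16026 genes without chow 1, 184 of 16110 without chow 2 and 375 of 16127 without chow 3. Without HFD 1, 2 and 3 it called 86 of 16215, 174 of 16187 and 132 of 16189. These totals apply to all counts below from these fits of the diet experiment. At an unadjusted p under 0.05 there were 3 members lower (Slc10a1, Slco1a4 and Abcc3) and 1 higher (Abcb4), against 15.0% of all genes. The median log2 fold change of the 10 members was -0.31, against -0.02 over all genes tested. In 5 members every HFD library lay below every chow library and in 0 every one lay above, where 21.9% of all genes did not overlap, 10.8% being lower and 11.2% higher.

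**Figure D2:**
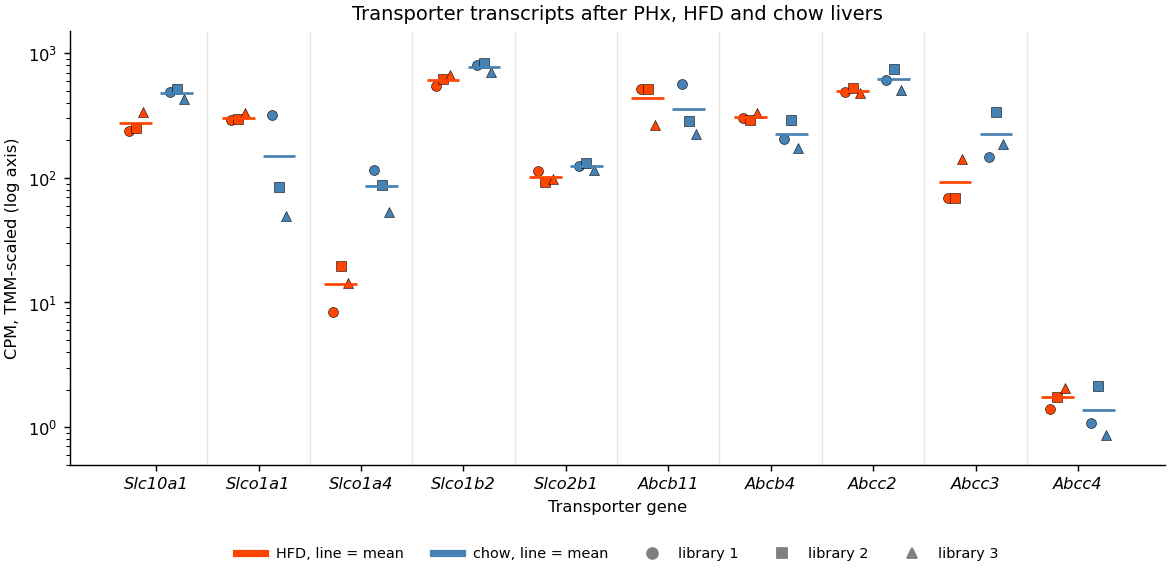
CPM of each transporter gene in the 3 HFD libraries (left in each pair) and the 3 chow libraries (right), on a log axis, with lines at group means. Slco1a4 lies at 8.46 to 19.6 CPM in HFD and 53.7 to 115.7 CPM in chow livers, and Slco1a1 spreads from 49.1 to 318 CPM in chow livers.

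Slco1a4 measured 8.46, 19.6 and 14.5 CPM in HFD livers, against 115.7, 87.5 and 53.7 CPM in chow livers. All HFD libraries were below all chow libraries, and the lowest chow library was still above the highest HFD library. The log2 fold change was -2.59 ± 0.39 (SE; 95% interval -3.52 to -1.67; edgeR adjusted p = 0.0238), which is 6.04-fold lower. The call did not survive leaving out chow 2, HFD 1 or HFD 3 (adjusted p = 0.0742, 0.0508 and 0.106), where the log2 fold change stayed between -2.61 and -2.33, nor fitting without a filter on low counts (adjusted p = 0.118). Of its transcript's stretches of 50 bases, 1.61% also occur in another gene, mostly its neighbour in the family, Slco1a5.

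Slc10a1, the sodium-dependent bile acid carrier, was lower in HFD livers without passing the test. It measured 237, 250.1 and 337 CPM in HFD livers, against 490.0, 514 and 433 CPM in chow livers. The groups did not overlap, HFD 3 being the highest of its group and chow 3 the lowest. Its log2 fold change was -0.80 ± 0.18 (SE; 95% interval -1.21 to -0.40; edgeR adjusted p = 0.0577). DESeq2 called it (adjusted p = 0.00112), as did edgeR without chow 3 (adjusted p = 0.0485) or without a filter on low counts (adjusted p = 0.00501). The other 12 of 15 alternative fits did not call it. With 1 library left out the edgeR adjusted p reached 0.294.

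Slco1b2, which carries bilirubin and unconjugated bile acids, measured 549, 625 and 669.8 CPM in HFD livers, against 799.8, 836 and 706 CPM in chow livers. Slco2b1, a carrier of steroid sulfates and drugs, measured 113, 92.5 and 98.7 CPM in HFD livers, against 124, 132 and 117 CPM in chow livers. In both genes the HFD libraries lay below the chow libraries, by small margins. The log2 fold changes were -0.34 ± 0.16 for Slco1b2 and -0.29 ± 0.13 for Slco2b1 (SE; edgeR adjusted p = 0.368 and 0.343). Exons of Slco2b1 overlap genes on the other strand over 9.21% of their length. The strand setting of the counting is not given in the sources used here, so the effect of this overlap on its level is unknown. The same holds for Abcb11 over 3.01%.

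Slco1a1, the neighbour of Slco1a4 and a carrier of similar substrates, showed the opposite sign and a wide spread in chow livers. It measured 289, 296 and 329 CPM in HFD livers, against 318, 84.9 and 49.1 CPM in chow livers. Chow 1 lay among the HFD libraries, and chow 2 and chow 3 lay well below them. HFD over chow gave a log2 fold change of 1.02 ± 0.68 (SE; 95% interval -0.65 to 2.68; edgeR adjusted p = 0.555). Without chow 1 it was 2.19 and passed the test (adjusted p = 0.00226), and in the other 14 of 15 alternative fits it did not pass. The summed CPM of 14 acute phase genes was 38803 to 42473 in HFD livers, against 24623, 47280 and 107610 in chow 1, 2 and 3, so the chow libraries ran in the opposite order for this list and for Slco1a1. Its part in the result was not tested.

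Of the 3 canalicular exporters edgeR called 0 between the diets, with Abcb4 higher at an unadjusted p under 0.05. Abcb11, the bile salt export pump, measured 519, 517 and 266 CPM in HFD livers, against 567, 288 and 224 CPM in chow livers. Abcb4, which moves phosphatidylcholine into bile, measured 300.4, 290.1 and 328 CPM in HFD livers, against 207, 290.7 and 173 CPM in chow livers. Abcc2, the pump for conjugated bilirubin and glutathione conjugates, measured 488, 524 and 482 CPM in HFD livers, against 607, 753 and 511 CPM in chow livers. The groups overlapped in all 3 genes, in Abcb4 only through chow 2 and HFD 2. Their log2 fold changes were 0.27 ± 0.40, 0.45 ± 0.20 and -0.33 ± 0.18 (SE; edgeR adjusted p = 0.812, 0.329 and 0.453), with 95% intervals of -0.66 to 1.20 for Abcb11, 0.003 to 0.91 for Abcb4 and -0.73 to 0.08 for Abcc2.

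Of the blood-side exporters, Abcc3, which carries glucuronides, was lower in HFD livers without passing the test. It measured 68.5, 69.5 and 140.8 CPM in HFD livers, against 148, 340.0 and 188 CPM in chow livers. The groups did not overlap, though HFD 3 and chow 1 were close. The log2 fold change was -1.28 ± 0.41 (SE; 95% interval -2.24 to -0.32; edgeR adjusted p = 0.205), and DESeq2 called it (adjusted p = 0.00285). The other 14 of 15 alternative fits did not call Abcc3. Abcc4, which exports bile acids with glutathione as well as cyclic nucleotides, was near the bottom of the scale in all 6 libraries. It measured 1.41, 1.75 and 2.07 CPM in HFD livers, against 1.08, 2.14 and 0.860 CPM in chow livers, and the groups overlapped (log2 fold change 0.35 ± 0.41, SE; edgeR adjusted p = 0.754).

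The inhibitor comparison asked how SSO before surgery bears on the regenerating liver. Of the 10 transporters edgeR called 0, against 0.450% of 15788 genes tested (0.317% higher and 0.133% lower), with 3 higher (Slc10a1, Slco1a4 and Abcb11) and 1 lower (Abcc4) at an unadjusted p under 0.05, against 20.5% of all genes. DESeq2 called 3 members (Slco1a4, Abcb11 and Abcc4) and limma-voom 0. Over all genes DESeq2 called 1136 of 17896 and limma-voom 65 of 15788. Without vehicle 2 edgeR called 2646 of 16339 genes, and without vehicle 4, 364 of 16286, which applies to all counts below from these fits. The median log2 fold change of the members was 0.35, against -0.04 over all genes tested. In 1 member, Abcb11, every SSO library lay above every vehicle library, and in 0 every one lay below, where 11.8% of all genes did not overlap, 6.14% being higher and 5.62% lower. In all 10 members the SD between vehicle libraries was larger than that between SSO libraries. Vehicle 3 was the lowest vehicle library in 7 members and vehicle 2 the highest in 5.

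**Figure D3:**
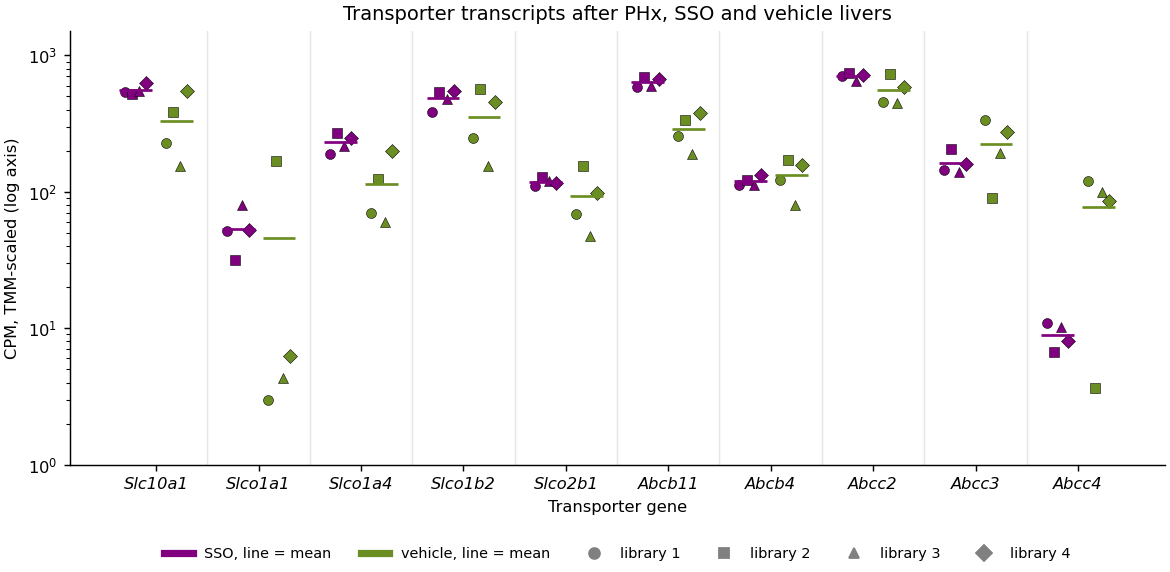
CPM of each transporter gene in the 4 SSO libraries (left in each pair) and the 4 vehicle libraries (right), on a log axis, with lines at group means and a marker shape per library. The SSO libraries lie close together, and vehicle 2 (square) departs from the other vehicle libraries in Slco1a1 at 168 CPM and in Abcc4 at 3.67 CPM.

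Abcb11, the bile salt export pump, measured 586, 689.8, 598 and 665 CPM in SSO livers, against 257, 334, 189 and 378 CPM in vehicle livers. The lowest SSO library was above the highest vehicle library. SSO over vehicle gave a log2 fold change of 1.13 ± 0.24 (SE; 95% interval 0.60 to 1.66; edgeR adjusted p = 0.0843), which is 2.19-fold higher. It passed the test with DESeq2 (adjusted p = 0.000322), without a filter on low counts (edgeR adjusted p = 0.0325), without vehicle 2 (0.0128) and without vehicle 4 (0.0309). In the other 14 of 18 alternative fits it did not pass. With 1 library left out the edgeR adjusted p reached 0.272. The neighbours of Abcb11 in the canaliculus had smaller log2 fold changes. Abcb4 measured 112.5, 121, 111.5 and 133 CPM in SSO livers, against 121, 170.4, 80.0 and 156 CPM in vehicle livers. Abcc2 measured 704, 744, 652 and 712 CPM in SSO livers, against 455, 729.7, 445 and 588 CPM in vehicle livers. The vehicle range took in the whole SSO range in Abcb4, and vehicle 2 lay within the SSO range in Abcc2, with log2 fold changes of -0.14 ± 0.23 and 0.34 ± 0.22 (SE; edgeR adjusted p = 0.748 and 0.393).

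Abcc4 had the largest log2 fold change of the 10 members in this comparison, and the vehicle libraries disagreed on it. It measured 10.9, 6.73, 10.2 and 8.00 CPM in SSO livers, against 120.2, 3.67, 99.4 and 86.0 CPM in vehicle livers. Vehicle 1, 3 and 4 were far above the SSO libraries, and vehicle 2 was below them all. The log2 fold change was -3.11 ± 0.79 (SE; 95% interval -4.91 to -1.32; edgeR adjusted p = 0.111). Without vehicle 2 it was -3.51 and passed the test (adjusted p = 3.55e-05), and DESeq2 called it with all libraries (adjusted p = 0.00923). The other 16 of 18 alternative fits did not call it. With 1 library left out the edgeR adjusted p reached 0.286. Without vehicle 1 and vehicle 3 together, an alternative added after the data were seen, no member was called. Abcc3 measured 143, 204, 139.8 and 161 CPM in SSO livers, against 336, 89.3, 192 and 272 CPM in vehicle livers, where vehicle 2 was again the lowest (log2 fold change -0.46 ± 0.34, SE; edgeR adjusted p = 0.470).

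Some other transcripts followed the same split of the vehicle libraries. NRF2 targets, genes of the antioxidant response, include Srxn1, which restores peroxiredoxins, and Slc7a11, the cystine carrier. Both were chosen after their values were seen. Srxn1 measured 30.9 to 53.2 CPM in SSO livers, against 298, 31.4, 311 and 134 CPM in vehicle 1 to 4. Slc7a11 measured at most 0.07 CPM in SSO livers, against 25.4, 0, 19.7 and 7.81 CPM in vehicle 1 to 4. In both, as in Abcc4, vehicle 2 was like the SSO libraries and vehicle 1, 3 and 4 were above them. The summed CPM of all 9 NRF2 targets, which is weighted to the most abundant ones, ran otherwise, at 4997 to 6539 in SSO livers, against 2819, 2506, 3475 and 4470 in vehicle 1 to 4. Their mean log2 CPM did follow the split of Abcc4. It was 5.55 to 5.70 in SSO livers, against 7.23, 5.14, 7.38 and 6.73 in vehicle 1 to 4. In SSO 1, SSO 3, SSO 4 and vehicle 2, 1 of the 9 genes had 0 counts. Of the 8 tested, 7 had negative log2 fold changes. The positive one was Gstm1 (1.26 ± 0.33, SE; edgeR adjusted p = 0.111), named after its value was seen, with all SSO libraries above all vehicle libraries. EdgeR called 0 of 8 NRF2 targets tested (4 lower and 1 higher at an unadjusted p under 0.05), DESeq2 3 lower and 1 higher, and limma-voom 0; without vehicle 2 edgeR called 4 lower and 1 higher, and without vehicle 4, 1 lower and 1 higher. Nfe2l2, the gene of NRF2 itself, had a log2 fold change of 0.17 ± 0.21 (SE; edgeR adjusted p = 0.671).

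Markers of other cell types split in part the same way. The summed CPM of 8 macrophage markers was 194 to 323 in SSO livers, against 691, 144, 619 and 171 in vehicle 1 to 4, with no marker at 0 in any library. Its most abundant gene, Clec4f of Kupffer cells, measured 68.7 to 146 CPM in SSO livers, against 98.1, 51.0, 88.9 and 41.9 CPM in vehicle 1 to 4. The sums of 7 stellate and fibroblast markers were 174 to 269 CPM in SSO livers, against 614, 159, 561 and 245 CPM in vehicle 1 to 4, also with no marker at 0. Those of 7 cholangiocyte markers were 33.3 to 43.2 CPM in SSO livers, against 134, 44.5, 163 and 41.4 CPM in vehicle 1 to 4. Their mean log2 CPM was 0.30 to 0.53 in SSO livers, against 1.12, 0.26, 0.80 and 0.64 in vehicle 1 to 4. Of these 7 markers, 2 had 0 counts in SSO 1, SSO 4 and vehicle 3, Cftr being at 0 there, 1 had 0 counts in SSO 2, SSO 3 and vehicle 2, and none was at 0 in vehicle 1 and 4. These sums set vehicle 1 and 3 apart, whereas Abcc4 was high in vehicle 4 as well. Of these 3 lists edgeR called 0 genes, with 1, 2 and 1 lower and 1 cholangiocyte marker higher at an unadjusted p under 0.05. The higher one was Krt19 (log2 fold change 1.15 ± 0.45, SE; edgeR adjusted p = 0.192), without overlap of the groups. The lower cholangiocyte marker was Spp1 (-1.58 ± 0.48, SE; edgeR adjusted p = 0.135). Both are named after their values were seen. Log2 fold changes were positive in 3 of 8 macrophage, 2 of 7 stellate and 1 of 5 cholangiocyte markers tested. By DESeq2 1, 2 and 1 were lower, limma-voom called 0, and without vehicle 2 edgeR called 1, 2 and 2 lower, and without vehicle 4, 1 cholangiocyte marker lower. The part of such cells in the transporter values was not tested.

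**Figure D4:**
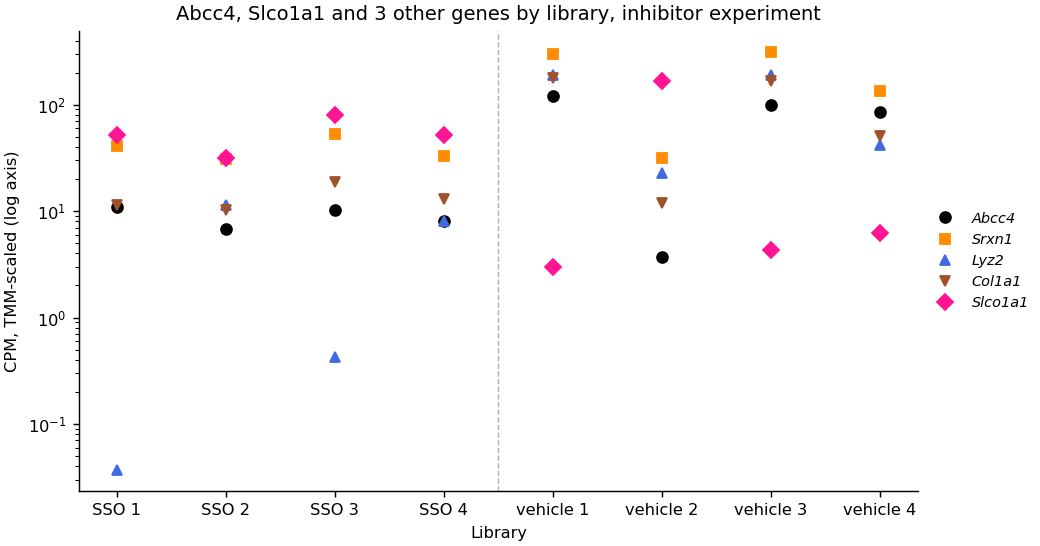
CPM of Abcc4, Slco1a1, Srxn1, Lyz2 and Col1a1 on a log axis in the 4 SSO and the 4 vehicle libraries. Abcc4 and Srxn1 are high in vehicle 1, 3 and 4, the macrophage marker Lyz2 and the collagen gene Col1a1 are highest in vehicle 1 and 3, and Slco1a1 is high in vehicle 2. Lyz2 and Col1a1 were chosen after their values were seen. In SSO over vehicle, 3 of 8 macrophage markers and 2 of 7 stellate and fibroblast markers had positive log2 fold changes.

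Slco1a1 was the mirror image of Abcc4 in the vehicle libraries. It measured 51.3, 31.6, 80.0 and 52.2 CPM in SSO livers, against 3.00, 168, 4.32 and 6.23 CPM in vehicle livers. Vehicle 2 lay above every SSO library and vehicle 1, 3 and 4 below every one. Its log2 fold change was 0.25 ± 1.17 (SE; 95% interval -2.39 to 2.89; edgeR adjusted p = 0.922), and without vehicle 2 it was 3.57 (adjusted p = 0.000993). It turned below 0 without vehicle 1, vehicle 3, vehicle 4 or SSO 3, at -0.14 to -0.01, so no direction can be given for it.

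The remaining uptake carriers had positive log2 fold changes that did not pass the test. Slc10a1 measured 542, 521, 551 and 623 CPM in SSO livers, against 227, 384, 154 and 547 CPM in vehicle livers, where vehicle 4 alone reached the SSO range. Slco1a4 measured 189, 269.8, 216 and 249 CPM in SSO livers, against 69.7, 124, 60.2 and 199 CPM in vehicle livers, again with vehicle 4 alone in the SSO range. Their log2 fold changes were 0.77 ± 0.35 and 1.03 ± 0.35 (SE; edgeR adjusted p = 0.243 and 0.151), and without vehicle 4 Slco1a4 was called (1.46; adjusted p = 0.0326). DESeq2 called Slco1a4 too (adjusted p = 0.049), and the other 16 of 18 alternative fits did not. Slco1b2 measured 384, 539, 477 and 551 CPM in SSO livers, against 247, 566, 154 and 453 CPM in vehicle livers. Slco2b1 measured 110.0, 128, 119 and 116 CPM in SSO livers, against 69.1, 154, 47.6 and 98.7 CPM in vehicle livers. In both, vehicle 2 was above and vehicle 1 and 3 below all SSO libraries, and vehicle 4 was below them in Slco2b1 only, with log2 fold changes of 0.46 ± 0.36 and 0.36 ± 0.30 (SE; edgeR adjusted p = 0.490 and 0.524).

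The effects of both treatments were set against each other in a joint fit, as the HFD effect minus the SSO effect, each taken within its own experiment. Slco1a4 was the only member called, against 3.63% of 17281 genes tested (2.18% positive and 1.45% negative), with a difference of -3.64 ± 0.56 on the log2 scale (SE; 95% interval -4.84 to -2.43; edgeR adjusted p = 0.00244). Its log2 fold change was -2.59 in HFD over chow and 1.03 in SSO over vehicle. This difference passed the test in all 19 alternative fits, with values of -4.02 to -3.36 and adjusted p up to 0.0117, leaving out each library included. At an unadjusted p under 0.05 there were 4 members, Slc10a1, Slco1a4, Abcc2 and Abcc4, against 20.4% of all genes. Slc10a1 had a difference of -1.58 ± 0.45, which was not called (SE; edgeR adjusted p = 0.0651; 0.0126 with DESeq2, 0.0315 without vehicle 2 and 0.00809 without vehicle 4). The other 16 of 19 alternative fits did not call it either. Abcc4 differed by 3.45 ± 1.10 (SE; edgeR adjusted p = 0.106), and passed with DESeq2 (0.0232) and without vehicle 2 (2.04e-05), but not in the other 17 of 19 alternative fits. Without vehicle 2, Slco2b1 passed as well, at -0.98 (edgeR adjusted p = 0.0322), where 2513 of all 17188 genes tested were called. The experiments also differ in sex by these transcripts, in time after PHx and in procedure, so a difference between the effects cannot be told apart from those.

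**Figure D5:**
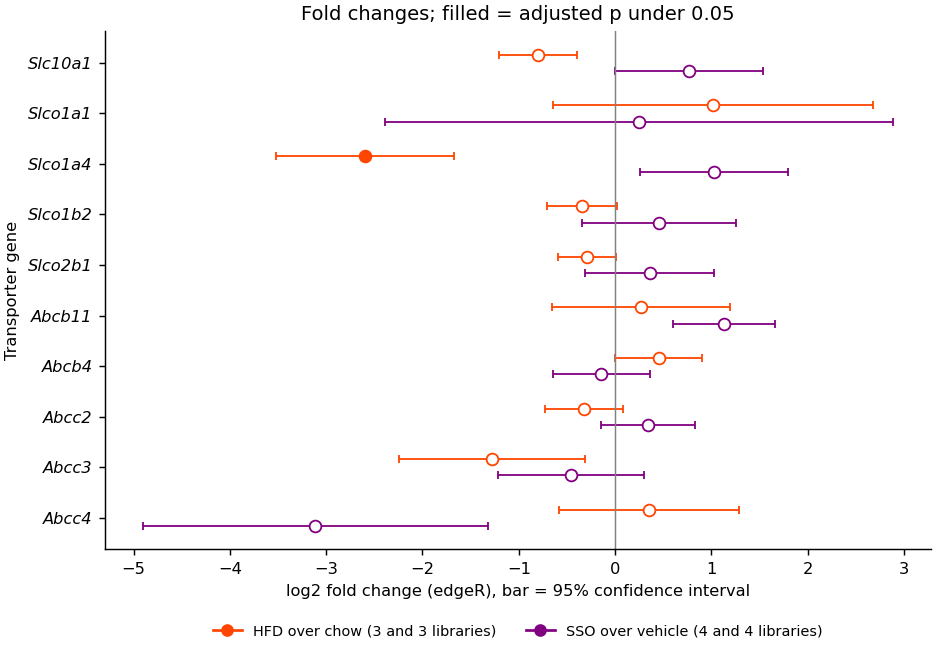
Log2 fold changes with 95% confidence intervals for HFD over chow (upper of each pair) and SSO over vehicle (lower), filled where the edgeR adjusted p is under 0.05. Slco1a4 is the single filled point, at -2.59 for HFD over chow, and lies at 1.03 for SSO over vehicle.

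The genes most like Slco1a4 in pattern over the 14 libraries, each table centred on its mean, were Gstt3, a glutathione transferase (Pearson r = 0.96, Spearman rho = 0.95), Zfp970, a zinc finger gene (0.95 and 0.93), and Cyp3a11, a steroid and drug hydroxylase (0.95 and 0.87), among 8461 genes compared. These are descriptions over libraries that share groups, and Cyp3a11 has close relatives in the genome. Cyp3a11 measured 211, 431 and 309 CPM in HFD livers, against 5600.2, 1382 and 1852 CPM in chow livers (log2 fold change -3.21 ± 0.60, SE; edgeR adjusted p = 0.0517). In the inhibitor experiment it measured 3136 to 4468 CPM in SSO livers, against 919, 2474, 596 and 2294 CPM in vehicle livers (1.29 ± 0.43, SE; edgeR adjusted p = 0.150). Cyp3a11 and Slco1a4 are both known targets of PXR, and the part of PXR in these values was not tested.

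The CAR and PXR target list, which does not hold Slco1a4, had 0 of 8 genes called in HFD livers by edgeR, with 6 lower at an unadjusted p under 0.05, while DESeq2 called 6 lower and limma-voom 2. All 8 were negative, with a median log2 fold change of -1.97 against -0.02 over all genes. Their summed CPM was 720 to 993 in HFD livers, against 7571, 3329 and 3326 in chow livers, so the groups did not overlap and chow 1 was the highest. Without chow 1 edgeR called 4 of them lower, without chow 3, 2, and without chow 2, 1. In SSO livers edgeR called 0 of the 8 (4 higher at an unadjusted p under 0.05; DESeq2 4 higher, limma-voom 0; 3 higher by edgeR without vehicle 2).

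Of 15 regulators of transporter genes, 3 fell in HFD livers: Nr1h4, which encodes FXR, Nr1i2, which encodes PXR, and Ahr, the dioxin receptor. Nr1h4 measured 77.0, 69.3 and 87.3 CPM in HFD livers, against 128, 130.2 and 116.5 CPM in chow livers. Nr1i2 measured 44.9, 41.9 and 53.8 CPM in HFD livers, against 68.7, 82.8 and 78.8 CPM in chow livers. In both genes all HFD libraries were below all chow libraries. The log2 fold changes were -0.68 ± 0.13, -0.71 ± 0.14 and, for Ahr, -0.78 ± 0.14 (SE; edgeR adjusted p = 0.0378, 0.0388 and 0.0231). The number called lower was 3 without chow 1, 2 without chow 3 and 0 without chow 2 or any 1 HFD library, and 1 when libraries were scaled by size alone. In SSO livers edgeR called 0 of 15 (1 higher at an unadjusted p under 0.05; DESeq2 0, limma-voom 0; 3 higher by edgeR without vehicle 2). Nr1h4, that 1 gene, had a log2 fold change of 0.66 ± 0.23 (SE; edgeR adjusted p = 0.162), with all SSO libraries, at 205 to 245 CPM, above all vehicle libraries, at 94.6 to 200.4 CPM. The part of these regulators in the transporter values was not tested.

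Of 12 bile acid synthesis genes tested, 1 fell in HFD livers. This was Cyp7a1, whose enzyme sets the rate of the classic pathway, and it measured 43.6, 35.0 and 67.3 CPM in HFD livers, against 199.6, 200.2 and 140.1 CPM in chow livers (log2 fold change -1.89 ± 0.26, SE; edgeR adjusted p = 0.0100). The list had 0 genes called lower without HFD 1 and 2 without chow 3, and 1 called higher without chow 1. In SSO livers edgeR called 0 of 12 (2 higher at an unadjusted p under 0.05; DESeq2 1 higher, limma-voom 0; 1 higher by edgeR without vehicle 2). Of 24 other hepatic transporters, 19 were tested in the diet experiment and edgeR called 0 (3 higher and 1 lower at an unadjusted p under 0.05; DESeq2 0, limma-voom 0; 1 higher by edgeR without chow 1). Of the 20 tested in the inhibitor experiment edgeR called 0 (2 higher and 1 lower at an unadjusted p under 0.05; DESeq2 1 lower, limma-voom 0; 2 higher by edgeR without vehicle 2 and 1 lower without vehicle 4). Their median log2 fold changes were 0.01 in HFD livers and -0.12 in SSO livers, against -0.02 and -0.04 over all genes.

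Further lists describe what moved beside the transporters. In HFD livers 9 of 10 mitosis genes rose and 4 of 13 clock genes fell (Per3, Dbp, Tef and Ciart). With 1 library left out these counts were 7 to 10 and 1 to 5, the lowest without HFD 1 for both and also without chow 3 for mitosis. Among periportal hepatocyte genes 1 of 8 fell, Sds (-1.72 ± 0.20, SE; edgeR adjusted p = 0.00375), and the list's median log2 fold change was -0.98. At an unadjusted p under 0.05, 6 periportal genes were lower and 1 higher, DESeq2 called 5 lower and limma-voom 2, and edgeR called 2 lower and 1 higher without chow 1. Their summed CPM was 4321 to 5691 in HFD livers, against 10299 to 10873 in chow livers. Among pericentral genes edgeR called 0 of 8 (3 lower at an unadjusted p under 0.05; DESeq2 3 lower, limma-voom 0, and edgeR called 1 lower without chow 1), with sums of 6458 to 8387 CPM in HFD livers, against 10442 to 14832 CPM in chow livers. The mean log2 CPM of these pericentral genes nearly touched, at 7.047 to 7.263 in HFD livers and 7.266 to 7.608 in chow livers. Their log2 fold changes were negative in 6 and positive in 2. Of 10 male-biased genes 0 were called in HFD livers (3 higher and 1 lower at an unadjusted p under 0.05, DESeq2 3 higher and 1 lower, limma-voom 1 lower), and without chow 1 edgeR called 6 higher and 1 lower, and without chow 3, 1 lower. Of 3 female-biased genes tested, 2 fell, Slco1a4 itself among them (DESeq2 3 lower, limma-voom 1). Leaving out 1 library gave 0 lower without chow 2, HFD 1 or HFD 3, 1 without HFD 2 and 3 without chow 1. In SSO livers 1 male-biased gene rose, Cyp2d9 (1.81 ± 0.32, SE; edgeR adjusted p = 0.0459), and 1 mitosis gene fell, Cdk1 (-2.23 ± 0.38, SE; edgeR adjusted p = 0.0396). At an unadjusted p under 0.05 all 10 mitosis genes were lower, and 4 male-biased genes were higher and 1 lower. DESeq2 called 6 mitosis genes lower and 2 male-biased genes higher, and limma-voom 0 and 2. Neither list had an edgeR call without vehicle 1, vehicle 3 or any 1 SSO library. Over all genes edgeR called 16 of 16142 without vehicle 3 and 0 without vehicle 1 or any 1 SSO library. Without vehicle 2 the male-biased list had 5 higher and 1 lower and the mitosis list 10 lower, where 2646 of all 16339 genes tested were called. EdgeR called 0 genes of the acute phase, NRF2, hepatocyte, cholangiocyte, macrophage, sinusoidal endothelial, stellate and leukocyte and erythroid lists in HFD livers. At an unadjusted p under 0.05, 2 cholangiocyte and 1 stellate genes were higher there, and 1 acute phase, 1 NRF2, 1 hepatocyte, 1 stellate and 3 leukocyte and erythroid genes lower. DESeq2 gave 2 cholangiocyte genes higher and 1 hepatocyte, 1 stellate and 3 leukocyte and erythroid genes lower, and limma-voom 0. Without chow 1 edgeR called 2 acute phase, 1 hepatocyte, 1 endothelial and 1 leukocyte and erythroid genes lower and 1 cholangiocyte gene higher, and without chow 3 it called 1 cholangiocyte gene higher. In SSO livers it called 0 genes of the acute phase, clock, female-biased, pericentral, periportal, hepatocyte, endothelial and leukocyte and erythroid lists. At an unadjusted p under 0.05 these had 3 acute phase, 3 clock, 1 female-biased and 1 pericentral genes higher and 3, 1, 4 and 0 lower. DESeq2 gave 2, 1, 1 and 0 higher and 2, 0, 1 and 0 lower, and limma-voom 0. Without vehicle 2 edgeR called 1 acute phase, 3 clock, 4 pericentral and 1 leukocyte and erythroid genes higher and 3 acute phase, 1 clock and 2 female-biased genes lower. Without vehicle 4 it called 1 female-biased gene higher and 1 acute phase gene lower. The part of these differences in the transporter values was not tested.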

How the data were processed

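The authors deposited raw counts for each Ensembl gene, without normalization. Per the submitters' processing notes, the tools included featureCounts 2.0.2, HISAT2 2.2.1, Trim Galore 0.6.1 and DESeq2, with the build GRCm38 (mm10). RNA was polyT-selected, per the labels' protocols. For the strand setting, the annotation release and multi-mapping reads, settings were not given in the sources used here. GEO holds 1 record per group, to which table columns were assigned by name. Libraries of a group differed by more than sampling noise in every pair (lowest chi-square per gene 15.0).

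Each table was fitted alone with edgeR 4.0.16 in R 4.3.3 (robust quasi-likelihood test, TMM, filterByExpr), with Benjamini-Hochberg adjustment over all genes and calls at an adjusted p under 0.05. DESeq2 1.42.0 and limma 3.58.1 (voom) served as alternatives. The difference of effects came from 1 fit over both tables. Scripts were tested on simulated data. Of 55487 identifiers, 55141 matched a GENCODE M21 symbol. The named genes were all 10 members, up to 5 called genes per list, the most abundant marker of each other cell type, and the 3 genes most like a called member (mean of at least 3 log2 CPM); exceptions are named as such, and some genes of the lists are not reported here by name. Lyz2 and Col1a1 were chosen after their values were seen. The members and the 18 gene lists were chosen with earlier results of these data known. A count of 0 allows up to 3 counts, or 0.0752 to 0.119 CPM, and covers counting error only. The macrophage and single-cell data were not used here.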

Additional observations from a re-analysis of the deposited data

Results flagged for a closer look

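Among the 20 sets of 4 libraries in which a member could be checked for a lone high or low value, 1 stood out, and chance alone gives about 1 in 20. Slco1a1 measured 168.23 CPM in vehicle 2, far from 3.00, 4.32 and 6.23 CPM in vehicle 1, 3 and 4. The gap to the nearest other vehicle library was 0.98 of the range of the group. The SSO libraries lay between, at 31.6 to 80.0 CPM. The cause was not tested.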

How the results depend on the processing

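Of 520 member values recomputed under the alternatives, 485 kept their direction and their side of the threshold, 20 passed it newly, 5 no longer passed it and 10 changed sign. The number of members called in HFD against chow was 1, and 3 with DESeq2, 0 with a replicate block and 0 to 2 with 1 library left out. In SSO against vehicle it was 0, and 3 with DESeq2, 1 without a filter on low counts and 0 to 3 with 1 library left out. For the difference of effects it was 1, and 3 with DESeq2 and 1 to 4 with 1 library left out. Deviations from the group means of same-numbered libraries had correlations of -0.106 to 0.0308. With 3 or 4 libraries per group this check cannot show that replicate numbers did not mark pairs. Under the block Slco1a4 had an edgeR adjusted p of 0.0801. In SSO against vehicle, with 1 library left out, Slco1a1 ranged from -0.139 to 3.573 and Abcb4 from -0.3128 to 0.004881 on the log2 scale. Without both vehicle 1 and vehicle 3 the log2 fold change was -0.6809 for Slco1a1, -0.05791 for Slco1b2 and -0.08912 for Slco2b1. For the difference of effects, Slco1a1 was -1.018 with limma-voom and ranged from -2.529 to 1.918 with 1 library left out. The cause of these changes was not tested. Over all genes, edgeR called 361 genes in HFD against chow and 868 with DESeq2, 672 without the filter, 206 with the block and 86 to 681 with 1 library left out. In SSO against vehicle it called 71, and 37 with library size alone, 1136 with DESeq2, 205 without the filter, 47 with the block and 0 to 2646 with 1 library left out. For the difference it called 628, and 1429 with DESeq2 and 319 to 2513 with 1 library left out. Library size alone moved the median of all genes by 0.15, -0.16 and 0.33 on the log2 scale in the 3 comparisons, and moved the calls to 336 higher and 60 lower in HFD livers, against 249 and 112, and to 33 higher and 4 lower in SSO livers, against 50 and 21.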

Other observations

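Lyz2, a lysozyme of myeloid cells, was near 0 in some SSO livers only, at 0.04, 11.3, 0.43 and 8.00 CPM in SSO 1 to 4, against 188, 23.0, 189 and 41.5 CPM in vehicle 1 to 4, while the Kupffer cell gene Clec4f was present in every one of these libraries, at 107, 146, 68.7 and 92.4 CPM in SSO livers and 98.1, 51.0, 88.9 and 41.9 CPM in vehicle livers. The labels give these mice as wild type, and the cause of the low Lyz2 values was not tested. Abcc1, a relative of Abcc4 chosen after its values were seen, measured 2.56 to 3.53 CPM in SSO livers, against 12.1, 1.27, 11.0 and 1.64 CPM in vehicle 1 to 4, so it was high in vehicle 1 and 3 but not in vehicle 4, where Abcc4 was at 86.0 CPM.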
